A study of Mus musculus with 19 samples.

Results

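Follicular helper T (Tfh) cells, the CD4+ T cells that help B cells in the germinal centre, were compared between day 10 and day 7 of an immune response on the 8 arrays of cells sorted as CXCR5hi PD-1hi and then by a BCL6-YFP reporter. The members were chosen by the sort and day in their labels: 3 day 10 arrays (YFP-positive replicate 4, YFP-negative replicates 1 and 4) and 5 day 7 arrays (YFP-positive replicates 1 to 3, YFP-negative replicates 2 and 3), 8 of 19 in all. Per the labels, OT-II cells, CD4+ T cells whose transgenic receptor sees an ovalbumin peptide, carried 1 reporter allele (Bcl6yfp/+) on the C57BL/6J background and were given to congenic mice. The hosts received NP-OVA, a hapten coupled to ovalbumin, in complete Freund's adjuvant under the skin, and the draining lymph nodes were taken at day 7 or day 10. All 8 samples therefore share a single T cell specificity, a Bcl6 locus with 1 altered allele and 1 adjuvant; no age is given in the labels. CXCR5hi PD-1hi cells not split by YFP served as checks: 3 Bcl6+/+ arrays (replicates 1 and 2 from day 10, replicate 3 from day 7) and 3 Bcl6yfp/+ arrays, all from day 7. The protocol text is the same for every sample and may not describe the Bcl6+/+ cells. The labels do not say that arrays came from separate animals, so a p-value here covers the spread from array to array alone, and part of that may be technical.

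Tfh cells depend on the transcriptional repressor BCL6, enter B cell follicles through CXCR5 and carry much of the inhibitory receptor PD-1 (gene Pdcd1). Early in a response the cells divide fast; as germinal centres mature, Tfh cells settle in the follicle and divide less, and their output of helper signals changes. Dividing cells switch on genes for copying DNA in S phase through E2F factors, and genes for mitosis later in the cycle through promoter elements that often join a CCAAT box to a cell cycle homology region (CHR, TTTGAA).

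The genes behind the sort were bright, but without arrays of other sorts beside them this does not test the gate. Bcl6 RNA was bright in both reporter groups. At day 7 it read 14.08 to 14.19 in YFP-positive and 13.70 to 14.00 in YFP-negative cells. At day 10 it read 14.62 in YFP-positive and 13.79 and 14.14 in YFP-negative cells. Bcl6, Cxcr5, Pdcd1, Cd44 (an activation marker) and Cd4 lay at log2 12.8 or more on all 8 arrays, and none was called between the days (log2 differences of 0.27, 0.10, 0.33, -0.06 and 0.19). Of 11 T cell identity genes with a probe set, 11 reached log2 8 at both days.

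The days were not matched in every other respect. Xist, the RNA that silences an X chromosome, read log2 13.5 to 14.1 on the 5 day 7 arrays and 1.97 to 2.08 on the 3 day 10 arrays, and the Y-linked Eif2s3y read 2.25 to 2.40 and 13.2 to 13.3. In these 8 arrays day and the sex-linked transcripts cannot be told apart, so genes on the sex chromosomes were left out. The 3 Bcl6+/+ and 3 day 7 Bcl6yfp/+ arrays carried the Y-linked transcript as the day 10 arrays did (Eif2s3y 13.0 to 13.8), and the latter were used as a second day 7 group. YFP-negative replicate 1, a day 10 array, stood apart by transcripts of other cells: S100a9 and S100a8, granulocyte proteins, at log2 12.1 and 10.3 against at most 2.72 and 2.24 on the other 7. The lysozyme gene Lyz2 read 11.0 there and Jchain, the joining chain of antibodies, 12.4. Both were also raised on YFP-positive replicate 1 of day 7 (6.73 and 8.45), against at most 3.19 and 3.06 on the remaining sorted arrays. Over the whole lists, 7 of 21 myeloid genes reached log2 4 at day 10 and 4 at day 7, with a summed level of 8.10 to 13.4 against 8.33 to 9.67; for germinal centre B and plasma cell genes it was 5 of 8 and 2 of 8, with 10.6 to 12.8 against 9.30 to 10.7. The germinal centre list holds S1pr2, also counted among the homing genes below, at 9.20 to 10.35 at day 7 and 10.49 to 11.18 at day 10. In that list 3 of 8 genes, Rgs13 and Gcsam among them, lay below log2 4 on all 8 arrays. Of 17 B cell genes, 4 reached log2 4 at day 10 and 3 at day 7, with a summed level of 12.45 to 12.93 against 12.04 to 12.61. Ighm, Cd22 and Cd74 were bright on all 8 arrays (log2 11.6 to 11.8, 9.44 to 11.8 and 7.05 to 10.3), H2-Aa reached 5.81 on YFP-negative replicate 1 alone, and the other 13, with the defining genes Ms4a1, Cd79a and Pax5 among them, lay below log2 4 on all 8. Of 7 CD8 T and NK cell genes, 2 reached log2 4 at each day, with a summed level of 7.34 to 7.70 at day 10 against 6.80 to 7.55. In that list Klrb1a read 5.67 and 4.38 on YFP-positive and YFP-negative replicate 4 of day 10, and Klrc1 5.31 on YFP-positive replicate 1 of day 7. The part of other cells in the day differences was not tested. By their sorted values the arrays also fell into sets, taken here as normalized together, though this was inferred from the values and not from the labels. Among the 8 sorted arrays the sets follow the replicate number. Set 1 holds YFP-positive replicate 1 of day 7 and YFP-negative replicate 1 of day 10, sets 2 and 3 only day 7 arrays and set 4 only day 10 arrays.

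Of 9280 autosomal genes tested, 607 (6.54%) were called at an adjusted p under 0.05 with the reporter group as a term (limma, Benjamini-Hochberg). This fit treats the 8 arrays as independent, although arrays with the same replicate number deviated together, so its p-values ignore that link. Lower at day 10 were 441 genes (4.75%), with a median log2 difference of -1.63, and higher were 166 (1.79%), with a median of 1.69, while the median of all genes was -0.17. On arrays centred on their median the median of all genes moved to 0.04, and the higher share of the calls went from 27.3% to 39.8% (241 higher, 364 lower); under quantile normalization it was 40.5%. At least 2-fold changes made up 331 of the lower and 138 of the higher calls, and at least 8-fold changes 80 and 33. For 16 higher calls all day 7 arrays lay under log2 4, and for 17 lower calls all day 10 arrays did. Such genes passed the filter through the other day alone, and values near the floor vary little, so their p-values pool unlike spreads. The arrays of the days did not overlap for 1437 genes (15.5%), of which 519 were called. Every one of the 607 called genes moved the same way in both reporter groups, a property the choice of called genes favours. The lower calls had a median of -1.94 among YFP-positive arrays and -1.35 among YFP-negative ones, against -0.30 and -0.08 for all genes. No gene was called for a day difference that differed between the reporter groups (0%; 153 genes at an unadjusted p under 0.05, limma), with 1 YFP-positive array at day 10 behind that test; without the filter on low values 5 genes were called. In whole-population RNA, fewer cells of a kind and less RNA per cell cannot be told apart.

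The count of calls rested on single libraries and on the replicate numbers. Without YFP-positive replicate 4, the only YFP-positive array of day 10, 134 genes were called; without YFP-negative replicate 1, the array with granulocyte transcripts, 1429 were called, 595 of the 607 among them. Leaving out YFP-positive replicate 2 gave 386, and leaving out YFP-negative replicates 2, 3 or 4 gave 294, 404 and 305. A block on the replicate number leaves number 1 as the only pair that holds both days; with it 167 genes were called (78 higher, 89 lower), 102 of them shared, and 604 of the 607 kept their sign. As a background for the list counts below, lower calls made up 0.582% of all genes against the day 7 Bcl6yfp/+ arrays. They made up 1.08% without YFP-positive replicate 4, 12.2% without YFP-negative replicate 1 and 3.05% without YFP-positive replicate 2. The share was 2.28% and 2.5% without YFP-negative replicates 2 and 4, and 0.959% with the replicate block. The adjusted p of that fit is called the blocked adjusted p here and is printed where it ends a call.

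**Figure D1:**
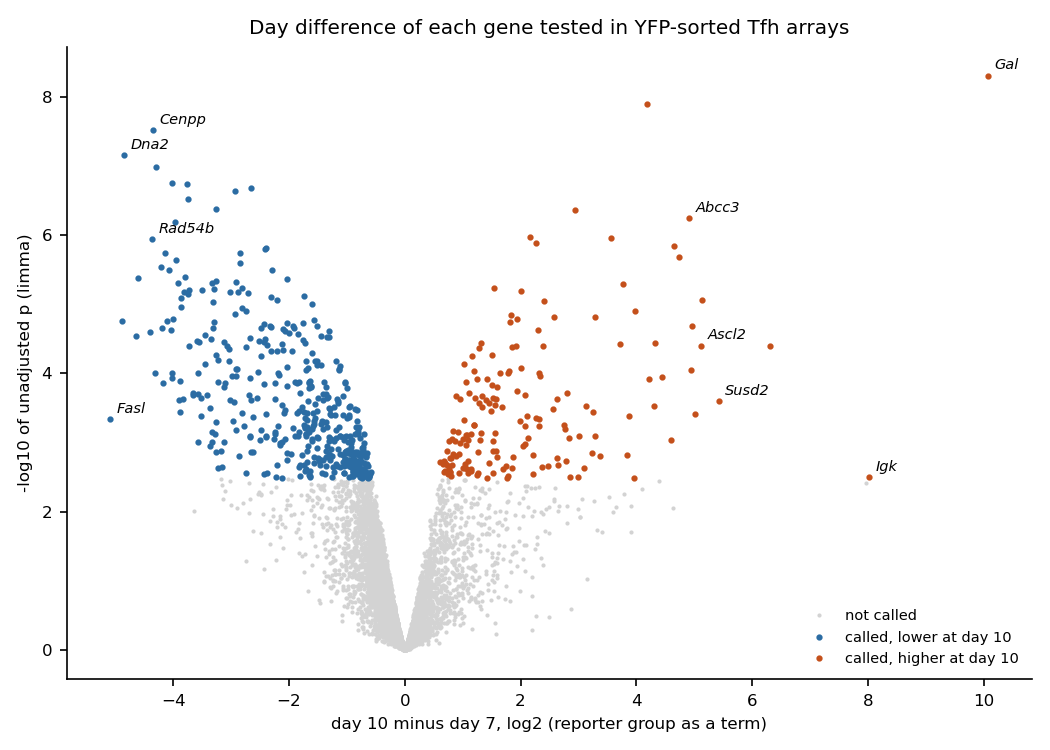
Day 10 minus day 7 on the log2 scale (horizontal axis) against the negative log10 of limma's unadjusted p (vertical axis) for the 9280 genes tested on 8 arrays. Blue points are the 441 genes called lower and orange points the 166 called higher at day 10; Gal lies alone at a log2 difference of 10.08.

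Gal, which encodes the neuropeptide galanin, gave the largest difference among called genes with arrays that did not overlap. Its probe set (chromosome 19) read log2 2.25, 2.21 and 2.41 on the day 7 YFP-positive arrays and 2.20 and 2.27 on the day 7 YFP-negative arrays, all at the floor of the scale. At day 10 it read 13.22 on the YFP-positive array and 11.12 and 12.22 on the YFP-negative arrays. All 3 day 10 arrays were thus bright and all 5 day 7 arrays dark. The log2 difference was 10.08 (SE 0.37, adjusted p = 4.64e-05, limma), a size that depends on the floor. Galanin was not bright on the arrays that were not split by YFP: the 3 day 7 Bcl6yfp/+ arrays read 2.30, 2.18 and 2.16, and the Bcl6+/+ arrays 4.24 and 2.48 at day 10 and 2.27 at day 7. The day difference of Gal in Bcl6+/+ cells was -8.99 relative to that in the reporter-sorted cells (adjusted p = 0.0299, limma interaction), with 1 array alone as the Bcl6+/+ day 7 side, assumed to vary like the others. Of 5 neuropeptide genes tested, Gal alone was called, against 6.54% of all genes. Ramp1, a receptor partner for calcitonin gene-related peptide, gave a difference of 0.71 with arrays that did not overlap and an adjusted p of 0.179 (limma).

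Susd2, which encodes a sushi-domain membrane protein, read 2.81, 2.21 and 5.09 in YFP-positive and 2.19 and 4.25 in YFP-negative cells at day 7, and 9.79 (YFP-positive), 6.99 and 8.81 (YFP-negative) at day 10. The groups did not overlap, though the day 7 arrays spread widely. The log2 difference was 5.43 (SE 0.86, adjusted p = 0.0102, limma), and the call was lost without YFP-positive replicate 4. In Bcl6+/+ cells Susd2 read 7.59 and 4.47 at day 10 and 3.03 at day 7.

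Abcc3, which encodes an exporter of organic anions, read 7.33, 6.52 and 7.45 (YFP-positive) and 4.93 and 5.47 (YFP-negative) at day 7. At day 10 it read 11.83, 9.73 and 10.79. Every day 10 array was above every day 7 array of either reporter group, by 4.92 in the fit (SE 0.33, adjusted p = 0.000404, limma). The Bcl6+/+ arrays lay at 5.67 and 6.20 (day 10) and 5.22 (day 7), below all 3 sorted day 10 arrays. Among 14 drug, lipid and ion transporters, Abcc3 was the 1 called higher; Abcb1b, a drug efflux pump, and Abcc4 were called lower (-1.71 and -0.71; blocked adjusted p = 0.398 and 0.119; called in 2 and 1 of 8 fits that leave out an array). Over all genes the shares were 1.79% higher and 4.75% lower.

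Rad54b, a DNA translocase of homologous recombination, changed the other way. It read 10.32, 9.94 and 10.57 (YFP-positive) and 6.93 and 7.43 (YFP-negative) at day 7, and 6.71 (YFP-positive), 2.14 and 2.29 (YFP-negative) at day 10. Both YFP-negative day 10 arrays were at the floor, and the YFP-positive one was just under the YFP-negative day 7 arrays. The difference was -4.37 (SE 0.32, adjusted p = 0.000618, limma), with an adjusted p of 0.0574 under the replicate block. Bcl6+/+ cells gave 7.26 and 6.89 at day 10 and 7.64 at day 7.

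**Figure D2:**
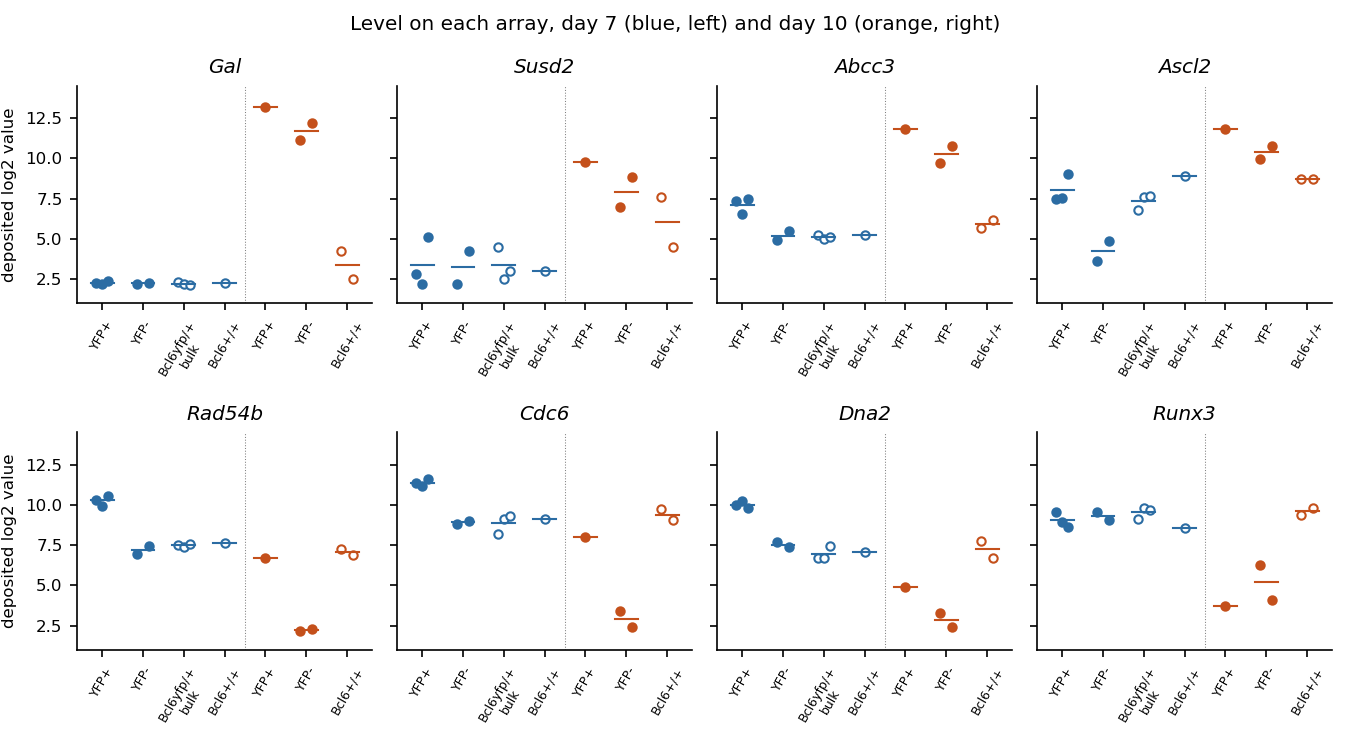
Deposited log2 value (vertical axis) of 8 named genes on each array, with day 7 arrays in blue left of the dotted line and day 10 arrays in orange right of it. Filled points are YFP-sorted arrays, open points are CXCR5hi PD-1hi arrays not split by YFP, and short lines are group means; for Gal all 3 sorted day 10 arrays lie above 11 and every other array at or below 4.24.

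Ascl2, a transcription factor that promotes the Tfh programme, was the highest Tfh gene. It read 7.46, 7.56 and 9.05 (YFP-positive) and 3.64 and 4.90 (YFP-negative) at day 7, and 11.83, 9.99 and 10.77 at day 10. The lowest day 10 array was above the highest day 7 array, and the difference was 5.12 (SE 0.62, adjusted p = 0.00322, limma; 0.143 with the block). Of 26 Tfh genes tested, 3 were called higher and 0 lower, against 1.79% and 4.75% of all genes, and the list's median was 0.11 against -0.17 for all genes. Fam43a rose by 1.55 and Sostdc1, a secreted antagonist of BMP and WNT signals, by 1.45 (blocked adjusted p = 0.0966 for Sostdc1, whose call also ended without YFP-positive replicate 4). Cd84, an adhesion receptor, Lef1, a TCF-family factor, and Tnfsf8, the ligand of CD30, had the lowest values, -0.36, -0.36 and -0.58, none called. Il21, the cytokine Tfh cells are best known for, gave -0.20.

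The rest of the 12 highest genes were of mixed function. Cxxc5, a zinc-finger protein that binds unmethylated CpG DNA, read 6.01 to 9.09 at day 7 and 11.46 to 12.59 at day 10, a difference of 4.74 (SE 0.38, adjusted p = 0.000791, limma). Icosl, the ligand of the Tfh receptor ICOS, read 2.79 to 4.01 at day 7 and 7.58 to 8.43 at day 10, but 7.70 to 8.71 on the Bcl6+/+ arrays of both days and 5.83 to 7.34 on the day 7 Bcl6yfp/+ arrays. Icosl was thus low only on the 5 day 7 sorted arrays among these 14, and against the day 7 Bcl6yfp/+ arrays its difference of 1.58 was not called (adjusted p = 0.132). Dnase1l3, a secreted nuclease, rose by 5.01, Fam71b by 6.30 and Hsf2bp, a partner of BRCA2, by 5.14. Krt6b, a keratin, and Acod1, which makes itaconate, rose by 4.97 and 4.95, yet Krt6b also read 7.38 and Acod1 6.93 on day 7 Bcl6yfp/+ replicate 1. Dnase1l3 and Acod1 lost their calls without YFP-positive replicate 4, and Dnase1l3 also without YFP-negative replicate 4. With the replicate block the adjusted p was 0.0972 for Cxxc5, 0.0807 for Dnase1l3, 0.136 for Krt6b and 0.0617 for Acod1. Igk, the antibody kappa light chain, read 10.56, 13.51 and 9.78 at day 10 and 2.04 to 2.17 on 4 day 7 arrays, but 9.52 on YFP-positive replicate 1; its call (8.02, adjusted p = 0.0489, limma) held in 1 of 8 fits that leave out an array. Antibody transcripts are made by B-lineage cells, and their part in this value was not tested.

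Fasl, the death ligand, led the lower genes. It read 8.09, 8.57 and 5.20 (YFP-positive) and 8.52 and 5.86 (YFP-negative) at day 7 and 2.14, 2.17 and 2.14 at day 10. The day 10 arrays were all at the floor, and the difference was -5.08 (SE 0.88, adjusted p = 0.0149, limma). This p too pools unlike spreads, with an SD of 1.60 at day 7 and 0.018 at day 10. The call was lost without YFP-positive replicate 4, YFP-negative replicate 2 or YFP-negative replicate 4. On the Bcl6+/+ arrays Fasl was bright at both days, 8.62 and 8.15 at day 10 and 7.81 at day 7. Runx3, a transcription factor of cytotoxic and Th1 cells, read 8.62 to 9.56 at day 7 and 3.71, 6.30 and 4.08 at day 10, a difference of -4.64, and 8.59 to 9.82 on the Bcl6+/+ arrays. Of 9 Th1 and cytotoxic genes tested, 3 fell, the third being the IL-18 receptor chain Il18r1 (-2.67), and 2 rose: the repressor Zeb2 (3.23) and the granule protease Gzma (2.63). Among all genes 4.75% were called lower and 1.79% higher. Zeb2 turned to -0.20 with the replicate block (adjusted p = 0.688) and overlapped between days. Blocked adjusted p was 0.0844 for Il18r1 and 0.0851 for Gzma. Zeb2 was called in 3 of 8 fits that leave out an array (without YFP-positive replicates 1 or 3 or YFP-negative replicate 1), and Il18r1 in 5 (lost as for Fasl). Bcat1, which starts the breakdown of branched-chain amino acids, fell by 4.40.

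The other 9 lowest genes serve DNA replication, repair or chromosome segregation, apart from Paqr4, a membrane protein of the progestin receptor family. Cdc6, which loads the replicative helicase on origins, read 11.37, 11.16 and 11.62 (YFP-positive) and 8.85 and 8.98 (YFP-negative) at day 7, and 7.98 (YFP-positive), 3.43 and 2.41 (YFP-negative) at day 10. Reporter-positive cells were above reporter-negative cells within each day, and every day 10 array was below every day 7 array. The difference was -4.89 (SE 0.52, adjusted p = 0.00236, limma; 0.212 with the block). Dna2, a nuclease and helicase that trims replication ends, fell by 4.85, Esco2 and Cdca5, which tie sister chromatids together, by 4.60 and 4.31, and Cenpp, a centromere protein, by 4.35. Paqr4 fell by 4.29, Kif2c, which takes microtubules apart at the centromere, by 4.21, and Neil3, a DNA glycosylase, by 4.20. Of the 24 genes at the extremes, 19 kept their call in all 8 fits that leave out an array, 14 with the replicate block, and 15 against the day 7 Bcl6yfp/+ arrays. Among the lowest, the blocked adjusted p passed 0.05 for Esco2 (0.149), Cdca5 (0.261) and Neil3 (0.118) as well. A second probe set was measured 8 times among these 24 genes and the markers, and 8 of 8 moved the same way. The second set gave the smaller difference in 7 of the 8, such as -2.04 for Dna2, -2.05 for Kif2c, -2.16 for Neil3 and -2.86 for Fasl, so the sizes depend on the probe set.

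Genes of cell division fell together. Over the lists of DNA replication, mitosis and homologous recombination, 86 of 118 distinct genes were called lower and 0 higher, against 4.75% lower over all genes; they made up 19.5% of all lower calls. All genes leaned below 0 too, with a median day difference of -0.30 for the YFP-positive group and -0.08 for the YFP-negative group. The share of all genes below 0 within each group is not given here. Of the 118 genes, 117 had a negative day difference in the first group and 117 in the second. A few of their promoters precede the values; these genes were picked by their day difference, while the letters come from RefSeq.

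The sequences are the 200 bases before the RefSeq start of each gene (GRCm38.p6), read 5′ to 3′ on the strand of the gene, for the 3 called mitotic genes with the lowest differences among those that hold CHR and CCAAT motifs (Cdkn3, a phosphatase of cyclin-dependent kinases; Ccnb2, a mitotic cyclin; Cdc20, an activator of the anaphase-promoting complex), the 2 replication genes chosen likewise by an E2F word (Cdc6; Mcm5, a subunit of the replicative helicase) and Gal, in which none of these was found. Capitals mark the CHR motif TTTGAA, the box CCAAT and the E2F words TTTGGCGC and also TTTCCCGC on either strand; none of these words contains another.
Cdkn3, chr14:46760341-46760540, plus strand: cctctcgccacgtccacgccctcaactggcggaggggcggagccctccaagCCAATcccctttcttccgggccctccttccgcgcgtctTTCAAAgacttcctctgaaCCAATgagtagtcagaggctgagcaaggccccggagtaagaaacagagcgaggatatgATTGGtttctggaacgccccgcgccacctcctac
Ccnb2, chr9:70421555-70421754, minus strand: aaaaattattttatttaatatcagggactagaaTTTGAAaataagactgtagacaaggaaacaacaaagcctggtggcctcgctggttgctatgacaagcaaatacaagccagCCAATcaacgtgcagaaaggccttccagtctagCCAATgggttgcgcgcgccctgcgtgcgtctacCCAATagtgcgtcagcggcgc
Cdc20, chr4:118437344-118437543, minus strand: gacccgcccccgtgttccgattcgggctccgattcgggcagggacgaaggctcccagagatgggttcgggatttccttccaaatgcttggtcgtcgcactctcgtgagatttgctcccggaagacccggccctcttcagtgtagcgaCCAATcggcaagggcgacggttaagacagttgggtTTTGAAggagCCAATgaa
Cdc6, chr11:98907951-98908150, plus strand: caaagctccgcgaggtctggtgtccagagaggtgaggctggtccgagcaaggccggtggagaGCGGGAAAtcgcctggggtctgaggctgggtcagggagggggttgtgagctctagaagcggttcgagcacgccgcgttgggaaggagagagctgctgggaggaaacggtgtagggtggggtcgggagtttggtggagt
Mcm5, chr8:75109309-75109508, plus strand: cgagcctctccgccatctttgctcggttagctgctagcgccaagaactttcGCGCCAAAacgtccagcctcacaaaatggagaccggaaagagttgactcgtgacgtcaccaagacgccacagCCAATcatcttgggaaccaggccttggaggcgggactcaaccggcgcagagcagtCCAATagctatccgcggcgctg
Gal, chr19:3414545-3414744, minus strand: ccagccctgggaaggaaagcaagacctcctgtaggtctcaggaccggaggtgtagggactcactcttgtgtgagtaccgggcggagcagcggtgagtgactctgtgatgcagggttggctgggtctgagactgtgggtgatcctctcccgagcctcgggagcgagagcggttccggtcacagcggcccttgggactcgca

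Of 54 mitosis genes tested, 43 matched a RefSeq promoter; 16 of the 43 (37.2%) held CHR, 30 (69.8%) held CCAAT and 14 (32.6%) held both. Among the 7630 tested genes with a promoter these shares were 7.44%, 33.8% and 2.74%, and among all 27025 promoters 12.7%, 30% and 3.83%. All genes called lower (360 with a promoter) gave 16.1%, 46.9% and 11.1%, and genes called higher (133) gave 7.52%, 28.6% and 0.752%. Either E2F word was in 5 of 30 replication promoters (16.7%), 2.41% of promoters of the genes tested and 1.17% of all promoters. A match is a string of letters, not a site.

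Of 54 mitosis and spindle genes, 47 were called lower and 0 higher, with a median of -2.67. Mki67, the proliferation marker Ki-67, read 14.05, 13.64 and 14.33 (YFP-positive) and 12.51 and 12.96 (YFP-negative) at day 7, and 12.12, 11.50 and 10.29 at day 10. All day 10 arrays were below all day 7 arrays, the difference being -1.86 (SE 0.31, adjusted p = 0.0133, limma). Ccnb2 read 11.85, 10.91 and 12.18 (YFP-positive) and 9.59 and 10.36 (YFP-negative) at day 7 and 9.26, 6.83 and 4.23 at day 10, a difference of -3.56 (SE 0.70). The mitotic kinase gene Aurka (-4.02) and the centromere gene Cenpk (-4.03) fell further, and Foxm1, a transcription factor of mitotic genes, fell by 3.31. The members that were not called included Smc4, a condensin subunit, at -0.23, and Cenpa, the centromeric histone, at -0.88. The arrays of the days did not overlap for 34 of the 54, against 12.2% of all genes in this direction. Leaving out YFP-positive replicate 4 ended the call of Mki67, and Ccnb2 kept its call in 4 of 8 such fits (lost without YFP-positive replicates 3 or 4 or YFP-negative replicates 2 or 3); blocked adjusted p was 0.181 for Mki67, 0.496 for Ccnb2 and 0.156 for Foxm1.

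The mean level of the mitosis list put that in order: 11.59, 10.80 and 11.68 on the day 7 YFP-positive arrays, 9.17 and 9.52 on the day 7 YFP-negative arrays, 8.89 on the day 10 YFP-positive array and 7.06 and 6.23 on the day 10 YFP-negative arrays. Within each reporter group the days did not overlap, and within each day YFP-positive cells were above YFP-negative cells. Bcl6+/+ arrays lay at 10.09 and 8.89 (day 10) and 9.14 (day 7), and day 7 Bcl6yfp/+ arrays at 9.06, 8.98 and 9.10. These bulk arrays thus ran from the level of the day 10 YFP-positive array to above the day 7 YFP-negative arrays, and the Bcl6+/+ array of day 7 lay between those of day 10. The count of mitosis calls was 24 without YFP-positive replicate 4, 8 with the replicate block (median -2.27) and 1 against the day 7 Bcl6yfp/+ arrays (median -1.56). In that last comparison 0.582% of all genes were called lower.

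Of 35 replication genes, 24 were called lower and 0 higher (median -1.49). Tk1 and Pole, thymidine kinase and the leading-strand polymerase, fell by 4.04 and 3.76. Mcm5 read 13.47, 12.74 and 12.88 (YFP-positive) and 11.90 and 11.42 (YFP-negative) at day 7 and 10.85, 10.43 and 9.84 at day 10, without overlap (-1.80, SE 0.27, adjusted p = 0.00887, limma). Pcna, the sliding clamp, fell by 0.81, while the ligase gene Lig1 gave -0.34 and Gins3 -0.29, both not called. The list's mean level was 11.65 to 12.06 (YFP-positive) and 10.20 and 10.29 (YFP-negative) at day 7, and 9.69 (YFP-positive), 8.96 and 8.43 (YFP-negative) at day 10. The count was 11 without YFP-positive replicate 4, and 4 both with the replicate block and against the day 7 Bcl6yfp/+ arrays; blocked adjusted p was 0.197 for Tk1, 0.0676 for Mcm5 and 0.179 for Pcna. Mcm5 lost its call without YFP-positive replicate 4, and Pcna kept it in 2 of 8 such fits, those without YFP-positive or YFP-negative replicate 1.

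Of 29 homologous recombination and Fanconi repair genes, 15 fell and 0 rose (median -1.50). Brip1, a helicase that binds BRCA1, and Rad54l, the sister gene of Rad54b, gave -4.07 and -4.02, and Brca1 -2.27. Fance and Rad51d had the highest values, 0.23 and 0.05, both not called. Calls numbered 5 without YFP-positive replicate 4, 9 without YFP-negative replicate 2, 8 without YFP-negative replicate 4, 2 with the replicate block and 1 against the day 7 Bcl6yfp/+ arrays, where the median was -0.51. Brca1 lost its call without YFP-positive replicate 4 or YFP-negative replicates 2 or 4. Blocked adjusted p was 0.0815 for Brip1, 0.154 for Rad54l and 0.188 for Brca1, and for the mitotic genes Aurka and Cenpk 0.13 and 0.052.

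**Figure D3:**
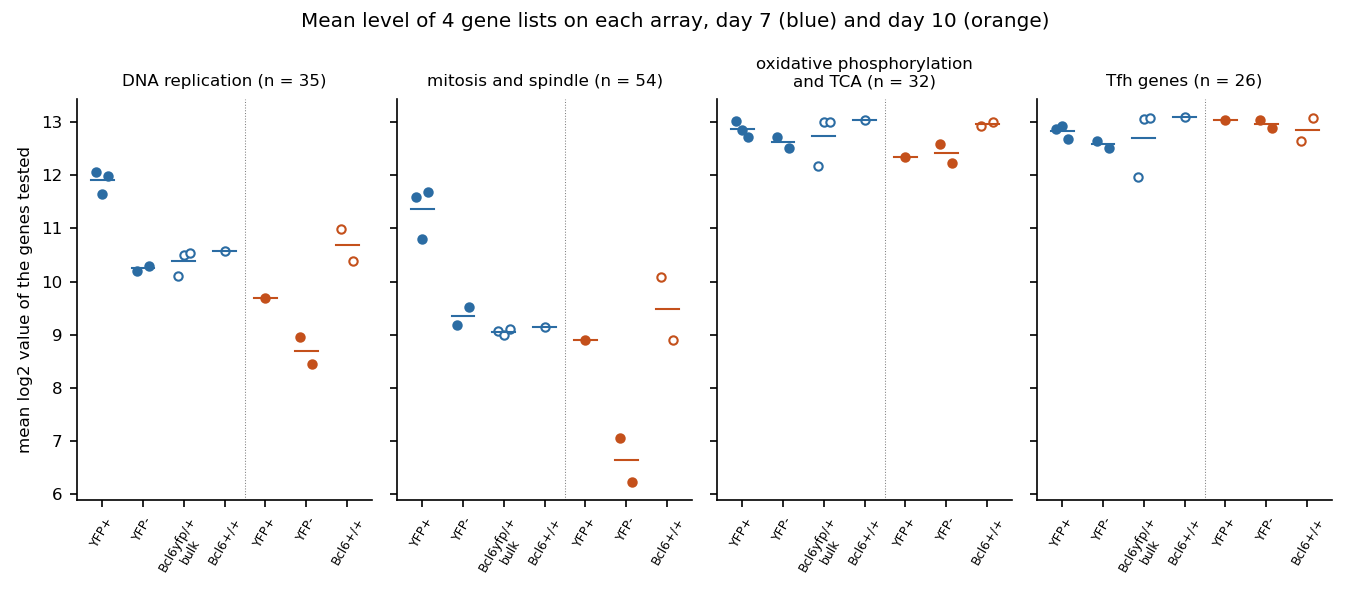
Mean deposited log2 value (vertical axis) of the tested genes of 4 lists on each array, arranged as in the plot of named genes, with day 7 in blue and day 10 in orange. The replication and mitosis lists step down from day 7 to day 10 within each reporter group, while the Tfh list stays between 12.5 and 13.0 on the 8 sorted arrays.

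Genes that gate entry into the cycle moved with them in part. Of 22 G1 cyclins, kinases, E2F factors and inhibitors, 6 fell and 1 rose, against 4.75% and 1.79% of all genes. Among those that fell were E2f1 (-3.04), E2f7 (-3.83) and E2f8 (-3.30), the first an activator and the others repressors of S-phase genes. The only riser was Cdkn1a, the CDK inhibitor p21, at 2.17 to 3.21 on day 7 arrays and 7.01, 3.09 and 5.76 on day 10 arrays. YFP-negative replicate 1 overlapped the day 7 range, and the Cdkn1a call (3.10, adjusted p = 0.0408, limma) held in 1 of 8 fits that leave out an array, the one without YFP-negative replicate 1. The replicate block left 0 of the list called (E2f1 0.0741, E2f7 0.0882, E2f8 0.161, Cdkn1a 0.27); without YFP-positive replicate 4, which ended the calls of E2f1 and E2f7, there were 2 lower calls, and without YFP-negative replicate 1 there were 12. Of 29 chromatin genes, 3 fell, against 4.75% of all genes, and 9 without YFP-negative replicate 1, against 12.2% of all genes. The 3 were Suv39h2, a histone H3K9 methyltransferase (-2.42), Uhrf1, which guides maintenance methylation (-2.20), and the remodeller Hells (-2.07). Blocked adjusted p was 0.154 for Uhrf1 and 0.0754 for Hells.

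Genes of growth metabolism gave lower calls only. Of 31 MYC-target, ribosome biogenesis and nucleotide synthesis genes, 6 fell (19.4%, against 4.75% of all genes) and 0 rose (median -0.72): Cad, which opens pyrimidine synthesis, and the ribosome assembly gene Rrp12 fell by 1.70 each, and Srm, spermidine synthase, by 1.55. Of 22 cholesterol and fatty acid genes, 5 fell (22.7%, median -0.66), Idi1, an isomerase of the mevalonate pathway, by 2.84 and Sqle, squalene epoxidase, by 1.66. Of 19 amino acid and one-carbon genes, 4 fell (21.1%, median -0.57), among them Asns, asparagine synthetase (-2.67), the leucine transporter gene Slc7a5 (-1.56) and Phgdh, which opens serine synthesis (-1.39). Idi1 read 9.36 to 11.61 at day 7 and 8.43, 6.63 and 6.96 at day 10. The 3 counts were 21, 14 and 7 without YFP-negative replicate 1 and 0, 2 and 0 without YFP-positive replicate 4, and 1, 1 and 0 with the replicate block. Leaving out YFP-negative replicate 2 gave 2 for the first list and 1 for the third, and leaving out YFP-negative replicate 4 gave 1 for the third. Without YFP-positive replicate 2 the third count was 2. Calls of Srm, Sqle and Phgdh ended without YFP-positive replicate 4, those of Cad and Rrp12 also without YFP-negative replicate 2, Asns was called in 5 and Slc7a5 in 3 of 8 fits. Blocked adjusted p was 0.111 for Cad, 0.449 for Rrp12, 0.082 for Srm, 0.124 for Sqle, 0.321 for Asns, 0.0743 for Slc7a5 and 0.117 for Phgdh. Of 23 glycolysis genes 0 were called, against 6.54% of all genes. Without YFP-negative replicate 1 there were 1 higher and 2 lower, against 295 and 1134 of 9280 genes. Of 32 oxidative phosphorylation genes, 1 was lower (3.12%, near the share of all genes), Fh1 (fumarase), at -0.60. The list's median was -0.30. Blocked adjusted p was 0.291 for Fh1, called in 1 of 8 fits that leave out an array.

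**Figure D4:**
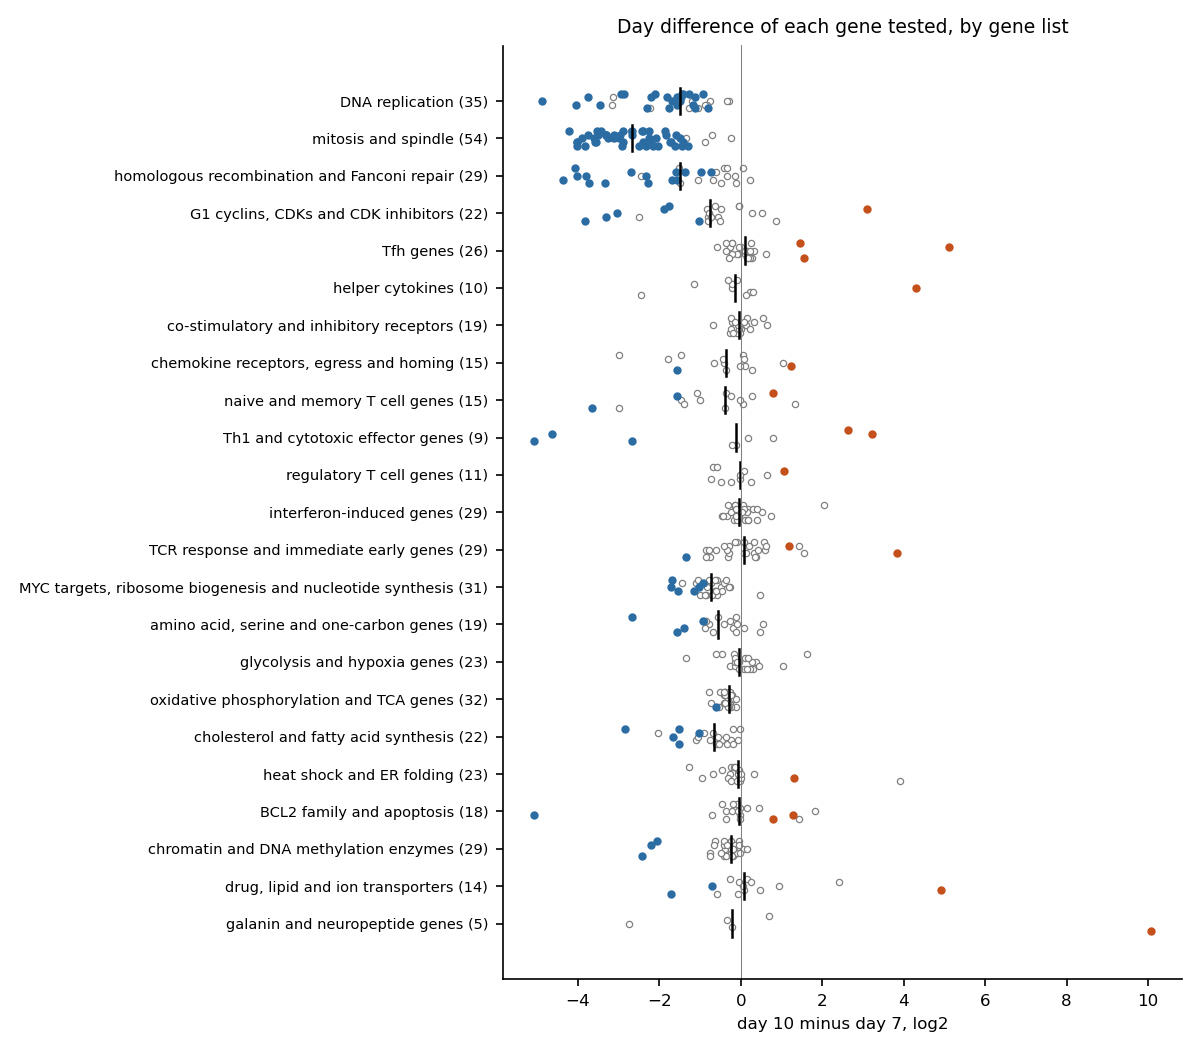
Day 10 minus day 7 on the log2 scale (horizontal axis) for each tested gene of 23 lists, with the number tested in brackets. Filled blue and orange points are genes called lower and higher, open points are not called, and black bars are list medians; replication, mitosis and recombination genes lie left of 0 apart from Fance and Rad51d, and Gal at 10.08 is the point farthest right.

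Of 10 cytokine genes 1 was called, and of 15 chemokine, egress and homing genes 2, against 6.54% of all genes. Csf1, which encodes the growth factor M-CSF, was the cytokine; it read 2.15 to 4.30 at day 7 and 8.49, 6.22 and 7.74 at day 10 (4.30, SE 0.69, adjusted p = 0.0114, limma), and its call was lost without YFP-positive replicate 4 or YFP-negative replicate 4. In the homing list S1pr2, which holds cells in the follicle, rose by 1.24, and S1pr1, which draws cells out of the node, fell by 1.56. S1pr2 read 9.20 to 10.35 at day 7 and 10.49 to 11.18 at day 10, with no overlap. S1pr1 overlapped between days and was lower in YFP-positive cells at each day: 5.02 to 5.49 (YFP-positive) and 8.79 and 9.12 (YFP-negative) at day 7, and 3.70 (YFP-positive), 7.82 and 6.90 (YFP-negative) at day 10. Within each reporter group its day 10 arrays were below its day 7 arrays. Both lost their calls without YFP-positive replicate 4 and with the replicate block (adjusted p = 0.0896 and 0.17).

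Of 29 genes of the T cell receptor response, 2 rose and 1 fell, against 1.79% and 4.75% of all genes. Dusp4, a phosphatase that dampens MAP kinases, rose by 3.85 and Rgs1, a brake on chemokine receptors, by 1.19, while Nr4a1, an early reporter of receptor signals, fell by 1.35 from 10.58 to 11.12 at day 7 to 9.10 to 9.70 at day 10. Of 15 naive and memory genes, Cd55, a complement regulator, fell by 3.65 and the survival gene Bcl2 rose by 0.79, beside S1pr1. Of 18 apoptosis genes, Bcl2 and Pmaip1, the BH3-only protein NOXA (1.27), rose and Fasl fell. Nt5e, the ectoenzyme CD73, was the only called gene of 11 regulatory T cell genes (1.06), and Hspa1b the only one of 23 heat shock and folding genes (1.32). Against the day 7 Bcl6yfp/+ arrays, whose mean was 13.51 beside 13.54 at day 10, Hspa1b gave 0.03 (adjusted p = 0.991, limma). Of 29 interferon-induced genes and 19 co-stimulatory and inhibitory receptors 0 were called here, against 6.54% of all genes. The interferon count was 3 higher under quantile normalization and 2 on centred arrays. Of all genes, 300 of 9254 and 241 of 9280 were called higher there. It was 4 higher with the normalization set as a random block and 1 with the replicate block (306 and 78 of 9280 genes). Without YFP-negative replicate 1 it was 2 lower, against 12.2% of all genes. The receptor count was 1 higher and 1 lower with the set as a random block, against 306 and 659 of 9280 genes. The blocked adjusted p was 0.0931 for Dusp4, 0.258 for Cd55, 0.357 for Bcl2, 0.536 for Pmaip1, 0.0899 for Nt5e and 0.136 for Hspa1b. It was 0.292 for Rgs1. Bcl2 was called in 1 of 8 fits that leave out an array, Pmaip1 and Dusp4 in 4, Hspa1b in 5 and Rgs1 in 6, while Cd55, Nt5e and Nr4a1 lost their calls without YFP-positive replicate 4. Nr4a1 also lost its call on centred and quantile-normalized arrays. The B cell marker Cd22 was called higher by 1.29 (blocked adjusted p = 0.119; called in 2 of 8 such fits).

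The Bcl6+/+ arrays were the check on the day. Between their days (2 arrays against 1), genes called higher in the sorted cells had a median difference of 0.16 and genes called lower 0.09, against -0.06 for all genes. At least log2 1 in the higher direction was reached by 29 of the 166 (17.5%), against 5.48% of all genes, and log2 -1 or less by 7 of the 441 (1.59%), against 1.54%. Above 0 were 101 of the 166 (60.8%, against 43.0% of all genes), and below 0 were 177 of the 441 (40.1%, against 57.0%). Bcl6+/+ replicates 2 (day 10) and 3 (day 7) belong to 1 normalization set; between them the medians were -0.01, -0.06 and -0.03, and of the 118 cell cycle and repair genes 96 were below 0 (60.2% of all genes were), against 37 over all 3 Bcl6+/+ arrays (57.0% of all genes). These 2 arrays differed by a median absolute log2 of 0.0988 over the genes tested, and day 10 replicate 2 by 0.0682 from day 7 Bcl6yfp/+ replicate 2 of the same set. The Bcl6+/+ replicates 1 and 2, both of day 10 but of different sets, differed by 0.563. The shares over all 3 Bcl6+/+ arrays thus carry that gap as well as the day. Sorted arrays of 1 reporter group differed by 0.247 to 0.490 within a day and by 0.290 to 0.580 between days. The normalization set and the day cannot be told apart for most of these pairs.

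A test of whether the day difference itself differed between Bcl6+/+ and sorted cells called 4 genes (0.0431%; limma interaction over 11 arrays, without the sets or replicate numbers as a block). The Bcl6+/+ day 7 side of it is 1 array, whose spread is assumed to be that of the others; with the normalization set as a random block 480 genes were called, these 4 among them. They were Gal (-8.99), Paqr4 (4.44, adjusted p = 0.0299), Dna2 (5.01, adjusted p = 0.0429) and Cenpp (4.71, adjusted p = 0.0299). Dna2 read 7.79 and 6.71 at day 10 and 7.09 at day 7 in Bcl6+/+ cells, and Cenpp 6.79, 5.79 and 5.93 in the same order. A day term shared by the 8 sorted and 3 Bcl6+/+ arrays called 0 genes (1224 at an unadjusted p under 0.05, limma), and the same term fitted over all 19 arrays called 31.

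**Figure D5:**
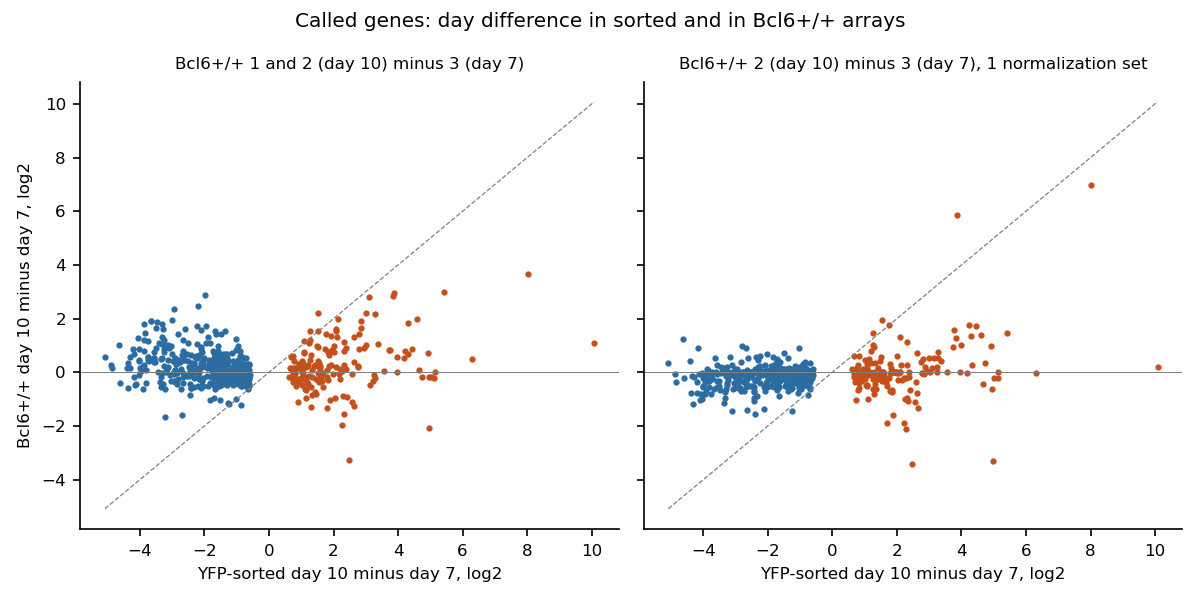
Day 10 minus day 7 in Bcl6+/+ cells (vertical axis, log2) against the same difference in YFP-sorted cells (horizontal axis, log2) for the 607 called genes, over all 3 Bcl6+/+ arrays (left) and over replicates 2 and 3 of 1 normalization set (right). The dashed line marks equal differences; the blue lower calls lie along 0 on the vertical axis, with medians of 0.09 (left) and -0.06 (right).

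The 3 day 7 Bcl6yfp/+ arrays gave a day 7 level with the sex-linked transcripts of day 10. They were not alike: replicate 1, of another normalization set, differed from replicates 2 and 3 by a median absolute log2 of 0.878 and 0.904. Replicates 2 and 3 differed by 0.101. The gap to replicate 1 adds to the spread in this test. Against them 224 genes were called in the sorted day 10 arrays (2.41%), 170 higher (1.83%) and 54 lower (0.582%), with reporter sorting differing between the sides. This fit held no reporter term, so the gap between YFP-positive and YFP-negative day 10 arrays counted as spread. As both comparisons use the same day 10 arrays, their values are given side by side only. Of the main 166 higher calls, 51 were called higher here too, and of the 441 lower calls, 40 were called lower. Gal gave 9.98 (10.08 in the main comparison), Abcc3 5.66 (4.92), Susd2 5.18 (5.43) and Rad54b -3.77 (-4.37, adjusted p = 0.1 here). Fasl gave -6.24 and Runx3 -4.84, both called. Of the 118 cell cycle and repair genes, 111 were below 0, as were 59.96% of all genes.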

How the data were processed

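Gene expression was measured on 19 Affymetrix arrays, 1 per sorted sample. The deposited values are log2 per probe set, which the authors made with GCRMA, a background correction and probe summary, per the submitters' processing notes; no version is given in the sources used here. A value near log2 2 is the floor of the scale, so differences against it depend on the floor. The number of arrays limits the precision.

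Of 45101 probe sets, 34958 carry 1 gene symbol in the platform annotation, 932 several, 9160 none and 64 are controls; 34754 matched the RefSeq table of GRCm38.p6 by identifier. Probe sets reaching log2 4 on at least 2 of the 8 sorted arrays were kept, autosomal genes only, with the probe set of the highest mean per gene: 9280 genes. Differences were fitted with limma 3.58.1 in R 4.3.3 (lmFit, eBayes) with reporter group and day as terms. The p-values were adjusted by Benjamini-Hochberg over all 9280, and calls required an adjusted p under 0.05. The fit against the day 7 Bcl6yfp/+ arrays held no reporter term. Errors are standard errors (SE) of the fit. The fit was tested on simulated data with known differences. The simulated noise was independent from array to array, unlike that of same-numbered arrays here, so it cannot show the error rate under such a link. Gene lists (32) carry no test. Alternatives were other filters, normalizations, blocks, left-out arrays and sample sets; the comparison with day 7 Bcl6yfp/+ arrays, the Bcl6+/+ interaction (with and without the set as a block) and the Bcl6+/+ difference within a normalization set were chosen after seeing the data.

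Sets taken as normalized together were inferred from sorted values and not from the labels (the values differed by up to 0.0482 log2 inside a set and by no less than 0.0666 between sets). Same-numbered sorted arrays deviated together from their reporter mean (correlations over genes 0.470, 0.759, 0.809 and 0.870 for numbers 1 to 4; 0.765, 0.622, 0.728 and 0.522 from the fit), so the numbers were taken as pairs; the pairing comes from these data and the labels' numbers. The members and lists were chosen with earlier results of these data known. Named are the 12 highest and 12 lowest differences among called genes with no overlap of the days, Gal, Susd2, Rad54b and Abcc3, up to 3 highest and 3 lowest genes per list, and the sort genes; other list members were named after their values were seen. Promoters came from RefSeq (GRCm38.p6). Figures were drawn with matplotlib.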

Additional observations from a re-analysis of the deposited data

Results flagged for a closer look

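On YFP-positive replicate 1, Igk read log2 9.52 while the other 4 day 7 sorted arrays read 2.04 to 2.17, a gap larger than Dixon's criterion allows in 5 arrays. Of 29 genes looked at in this way it was the 1 that stood out, and chance alone marks about 1 in 20. Jchain (8.45) and Lyz1 (8.60) were also above the other day 7 arrays on this library.

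The day difference in Bcl6+/+ cells minus that in the YFP-sorted cells was -8.99 for Gal, 4.44 for Paqr4, 5.01 for Dna2 and 4.71 for Cenpp (limma interaction, adjusted p = 0.0299, 0.0299, 0.0429 and 0.0299). The Bcl6+/+ day 7 side of this test is 1 array, whose spread is assumed to be that of the other groups.

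The sex chromosomes were left out of the comparison. There Eif2s3y, a Y-linked gene, averaged log2 13.3 on the day 10 sorted arrays and read 2.25 to 2.40 on the day 7 sorted arrays.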

How the results depend on the processing

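The total of 607 calls (166 higher, 441 lower, 135 distinct genes of the gene lists) moved as follows. A day term shared over all 19 arrays gave 31 (24 higher, 7 lower, 7 on lists), and one shared with the 3 Bcl6+/+ arrays gave 0, 0, 0 and 0 (1224 genes at an unadjusted p under 0.05, limma). No reporter term gave 288 (91, 197 and 50), the replicate block 167 (78, 89 and 28), and the normalization set as a random block 965 (306 higher). Quantile normalization gave 300 higher. Day 7 Bcl6yfp/+ arrays in place of the sorted ones gave 224 (54 lower, 23 on lists). Leaving out 1 array gave 134 to 1429 calls, 34 to 295 higher, 100 to 1134 lower and 52 to 209 on lists. The filter at log2 6, the mean of a gene's probe sets, median centring and limma's trend option kept the total within 1.5 times. Without the filter 5 genes were called for the day by reporter interaction in place of 0. With the normalization set as a random block the Bcl6+/+ interaction called 480 genes in place of 4. The cause of these shifts was not tested. The fits that leave out 1 array also hold fewer arrays.

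The sign turned for Zeb2 with the replicate block (-0.20) and for genes that were not called: Cd44 with quantile normalization (0.11), median centring (0.16), the mean of its probe sets (0.13), without YFP-positive replicates 1 (0.02) or 4 (0.15; range -0.19 to 0.15 over the left-out arrays) and against day 7 Bcl6yfp/+ (0.39); Cd4 with the mean of its probe sets (-0.026); and Tnfsf8 against day 7 Bcl6yfp/+ (0.37). Within 1 normalization set the Bcl6+/+ medians turned to -0.011 for the higher and -0.061 for the lower calls. Among the 24 genes at the extremes, all 24 kept their call with the set as a random block and 7 with all 19 arrays. Genes at the floor of the scale have no depth below it.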
